A study of Mus musculus with 12 samples.

Results

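Yap1, Wwtr1 (which encodes Taz) and 6 genes of the core Hippo pathway (Stk4, Sav1, Lats1, Lats2, Mob1a and Mob1b) were described across 12 Affymetrix arrays of NIH3T3 cells, an established mouse fibroblast line. The members were the probe sets that the array's annotation assigns to exactly 1 of these 8 genes, which gave 23 of the 45037 probe sets that are not controls. There were 6 probe sets for Lats2, 3 each for Wwtr1, Stk4 and Mob1a, and 2 each for Yap1, Lats1, Sav1 and Mob1b. A further probe set assigned to both Xpo4 and Lats2 was left out of all comparisons.

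The arrays formed 6 groups of 2, all of virus-infected cells. Tead2-EnR cells were harvested at 30% confluency (Tead2-EnR at low density), and Yap cells while still proliferating at slightly above the density at which normal cells are confluent (Yap at high density). Tead2-VP16 cells were harvested at complete confluency and, in a separate group, at that same high density while proliferating. Control vector cells were harvested at complete confluency (confluent control) and at 30% confluency (low-density control). Tead2 is a DNA-binding factor, VP16 a viral activation domain and EnR the repression domain of Engrailed. The labels give neither the species nor the form of the expressed Yap, and leave unsaid whether cells were pools or clones. Nor do they say if both arrays of a group stem from different cultures, so p-values reflect only the spread among these arrays, which may be technical.

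In the Hippo pathway, the kinase Mst1 (encoded by Stk4), bound to the scaffold Sav1, phosphorylates the kinases Lats1 and Lats2 and their activators Mob1a and Mob1b. Active Lats kinases phosphorylate the coactivators Yap and Taz, which are then held in the cytoplasm or degraded. Unphosphorylated Yap and Taz enter the nucleus and activate genes through Tead factors. In cultured fibroblasts the pathway is best known for contact inhibition, and much of its control is by phosphorylation and protein location, which transcript arrays do not measure.

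Tead factors bind the letters GGAATG or their complement CATTCC. In RefSeq windows from 250 bases before to 50 bases after annotated starts (mouse build GRCm38.p6), 14.7% of 32851 windows held this motif on either strand. All 8 genes were matched to 10 windows, and 5 of the genes (Yap1, Wwtr1, Lats2, Sav1 and Mob1a) had a window with it, against 16.6% of 27025 genes. The motif was searched after the values below had been seen, and a match of 6 letters describes the sequence without showing binding. Shown here, from 150 bases before to 20 bases after the start, are Wwtr1 and Lats2, the genes with a probe set that rose with Tead2-VP16 at matched confluency, and Yap1, with the motif in capitals. All are on the minus strand and are written 5′ to 3′ along the gene; their positions are chr3:57575891-57576060, chr14:57746104-57746273 and chr9:8004577-8004746.
Wwtr1: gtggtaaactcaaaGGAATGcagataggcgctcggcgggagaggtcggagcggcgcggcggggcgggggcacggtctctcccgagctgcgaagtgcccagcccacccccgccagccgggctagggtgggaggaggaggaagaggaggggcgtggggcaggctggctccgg
Lats2: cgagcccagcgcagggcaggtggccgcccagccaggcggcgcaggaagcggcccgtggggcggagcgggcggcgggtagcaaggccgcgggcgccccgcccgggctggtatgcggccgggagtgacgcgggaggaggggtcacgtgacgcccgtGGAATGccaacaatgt
Yap1: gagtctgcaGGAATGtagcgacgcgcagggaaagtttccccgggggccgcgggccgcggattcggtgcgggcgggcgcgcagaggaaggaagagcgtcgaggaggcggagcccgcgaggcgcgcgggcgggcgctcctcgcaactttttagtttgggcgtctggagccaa
The first base of the motif lay 136 bases before the start shown in Wwtr1 and 141 bases before it in Yap1, and was the 5th base of the transcript in Lats2. Another window of Wwtr1, at a different annotated start, had the motif 170 bases before that start. Stk4, Lats1 and Mob1b had no match in these windows.

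The deposited values were intensities, which are given as log2 below, and changes are log2 fold changes of the first group minus the second. Array medians lay between 5.69 and 5.74, and the arrays of a group correlated across probe sets with r from 0.9970 to 0.9982. All 8 fibroblast markers (among them Col1a1, Vim and Pdgfrb) were above the upper quartile of probe sets. None of the 20 measured markers of epithelial, macrophage, endothelial, adipocyte and muscle cells was. Of the 23 member probe sets, 16 were above that quartile and 2, both of Lats2, were below the median.

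Since each array reads a whole dish, fewer expressing cells and less RNA per cell cannot be told apart. Every member changed by less than 2-fold in all 9 comparisons. The largest of 207 changes was -0.79, and 53 passed the test, with an adjusted p below 0.05 by limma over all probe sets. An alternative fit of a probe set, below, changes the filter, the variance prior, the normalization, the block or the arrays used and keeps the probe set as the unit tested; means over the probe sets of a gene are given apart. The members' changes are set out in the map of changes by probe set.

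**Figure D1:**
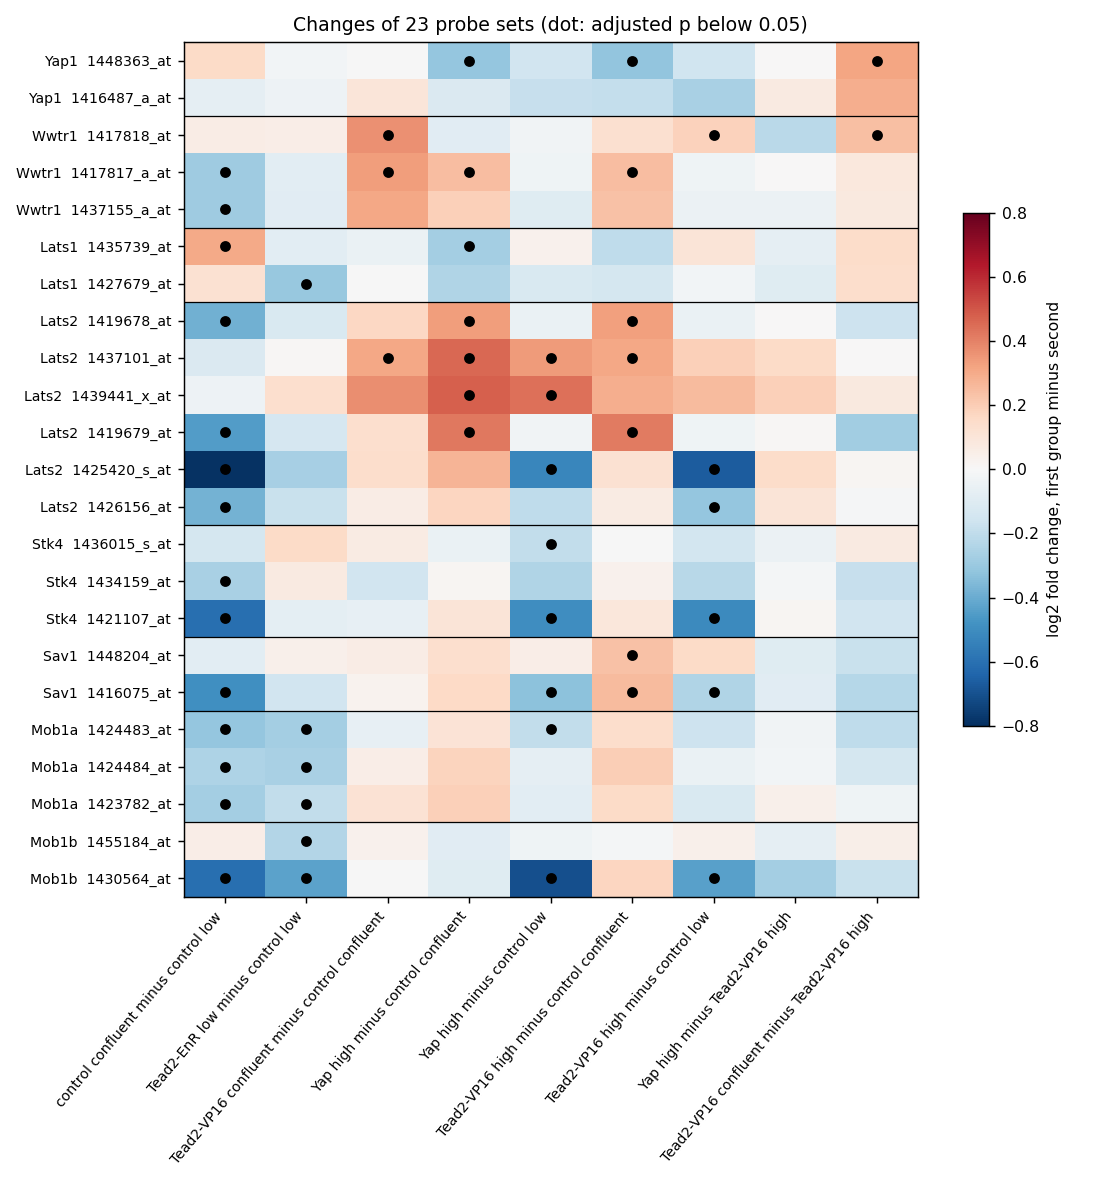
Log2 fold change (colour, first group minus second) of each of 23 probe sets, in rows by gene, in 9 comparisons, in columns; a dot marks an adjusted p below 0.05. The density step in control cells holds the most dots, 14, and the column of Yap against Tead2-VP16 at high density holds none.

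In confluent control against low-density control, 13 member probe sets of 6 genes fell and 1 rose, so 60.9% were called, beside 38.8% of all probe sets (18.6% lower and 20.2% higher). That gap in shares depended on the unit and the filter: among probe sets above the median 66.7% of 21 members and 68.8% of all 22518 were called, with 1 probe set per gene 4 of 8 members and 48.9% of 18193 genes, and with probe sets averaged by gene 87.5% of members and 47.6% of genes. The members' median change was -0.26 and that of all probe sets -0.02. Tead2-EnR cells had 6 member probe sets lower and 0 higher than low-density control, beside 13.9% and 13.6% of all probe sets in those directions. At an unadjusted limma p below 0.05 the counts were 7 and 1. In either direction 26.1% of members were called, beside 27.5% of all. Among probe sets above the median the shares were 33.3% of 21 members and 55.1% of all 22518. The median changes were -0.09 for members and -0.02 for all. With Tead2-VP16 against control, both at complete confluency, 3 rose and 0 fell (5 and 0 unadjusted, limma), beside 2.75% and 2.48% of all, with medians of 0.06 and -0.02.

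At high density, Yap cells had 5 member probe sets higher and 2 lower than confluent control, beside 8.09% and 9.13% of all, with medians of 0.14 and 0.01. Tead2-VP16 cells at high density had 6 higher and 1 lower than confluent control, beside 8.92% and 9.80% of all, with medians of 0.14 and 0.00. Against low-density control, Yap cells had 2 higher and 6 lower (17.3% and 15.6% of all), and Tead2-VP16 cells had 1 higher and 5 lower (16.7% and 15.9% of all). The members' medians there were -0.10 and -0.05, and those of all probe sets -0.00 and -0.01. In these 4 comparisons vector and density both differ and cannot be told apart, and comparisons that share a control share its arrays. Between Yap and Tead2-VP16 at high density limma called 0 members, beside 1.73% of all probe sets, with 2 at an unadjusted p below 0.05 and up to 1 in the other limma fits. Tead2-VP16 at complete confluency against high density gave 2 higher and 0 lower (3 and 5 unadjusted, limma), beside 8.26% and 8.00% of all. By the mean over a gene's probe sets, Yap1 was 0.30 higher there (adjusted p = 0.00637) and Sav1 0.20 lower (adjusted p = 0.0158). Without probe sets below the median, or with a variance trend, falls of Sav1 and Mob1a probe sets passed too. So did a further rise of Yap1. Leaving out probe sets below the median also made a call of a fall of Lats2 on 1419679_at (-0.28, adjusted p = 0.0424).

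**Figure D2:**
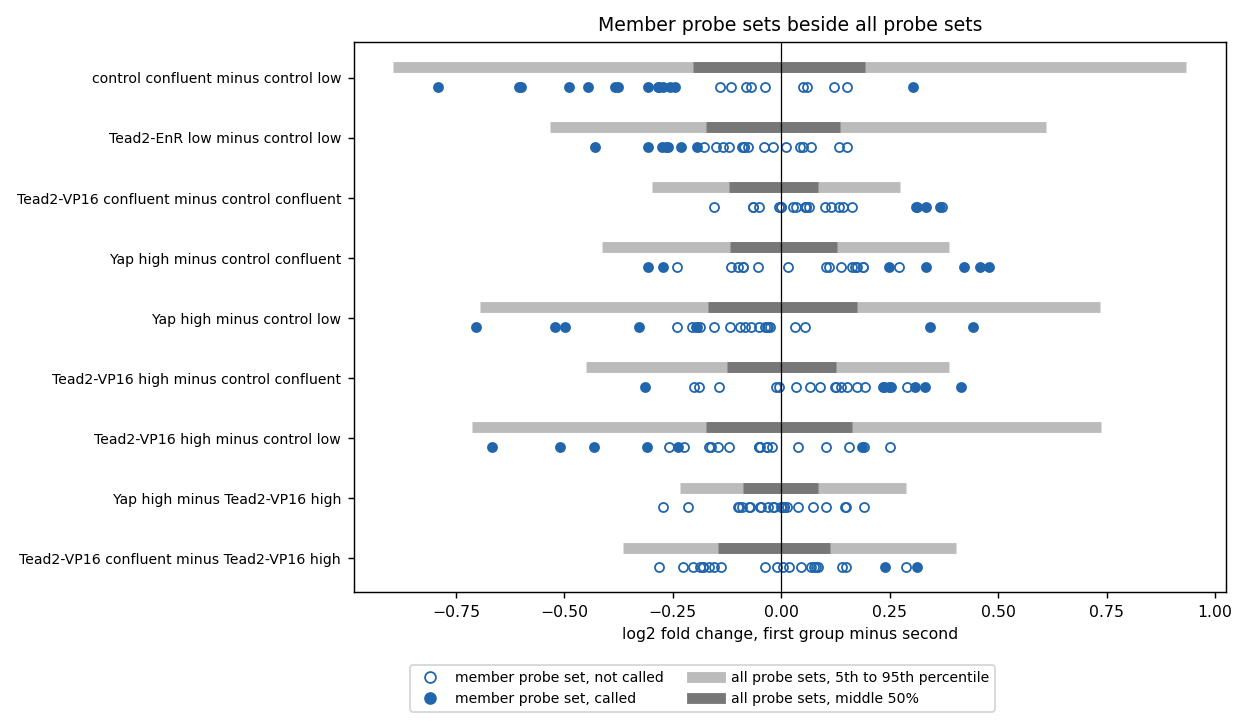
Log2 fold changes (horizontal axis, first group minus second) of the 23 member probe sets as points, filled where called, beside the 5th to 95th percentile (light bar) and middle 50% (dark bar) of all 45037 probe sets, in 9 comparisons. Most members lie inside the light bar, and in the density step of control cells all of them do, with 18 of 23 below 0.

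Yap1 was not higher on either probe set in the cells that were given Yap. On probe set 1448363_at it read 9.62 and 9.69 in Yap cells at high density, against 9.95 and 9.98 in confluent control and 9.79 and 9.83 in low-density control. Both Yap arrays lay below all 4 control arrays. Yap1 fell by 0.31 (SE 0.06) against confluent control (adjusted p = 0.00609), and this call was lost without the first Yap array (-0.28, adjusted p = 0.0555). Against low-density control it stood at -0.16 (SE 0.06, adjusted p = 0.0775; 0.0369 with 1 probe set per gene), and the mean of both probe sets at -0.17 (SE 0.06, adjusted p = 0.0483). On probe set 1416487_a_at the Yap arrays read 8.76 and 8.75, against 8.94 and 8.81 in confluent control and 8.93 and 8.96 in low-density control. That probe set differed by -0.12 and -0.19 from confluent and low-density control, and neither passed the test (adjusted p = 0.535 and 0.210). "Yap cells" throughout are therefore those of the arrays labelled Yap, in which these probe sets do not show the added gene. Whether either probe set matches the virus-borne Yap was not tested, since neither its sequence nor that of the probes was used here.

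**Figure D3:**
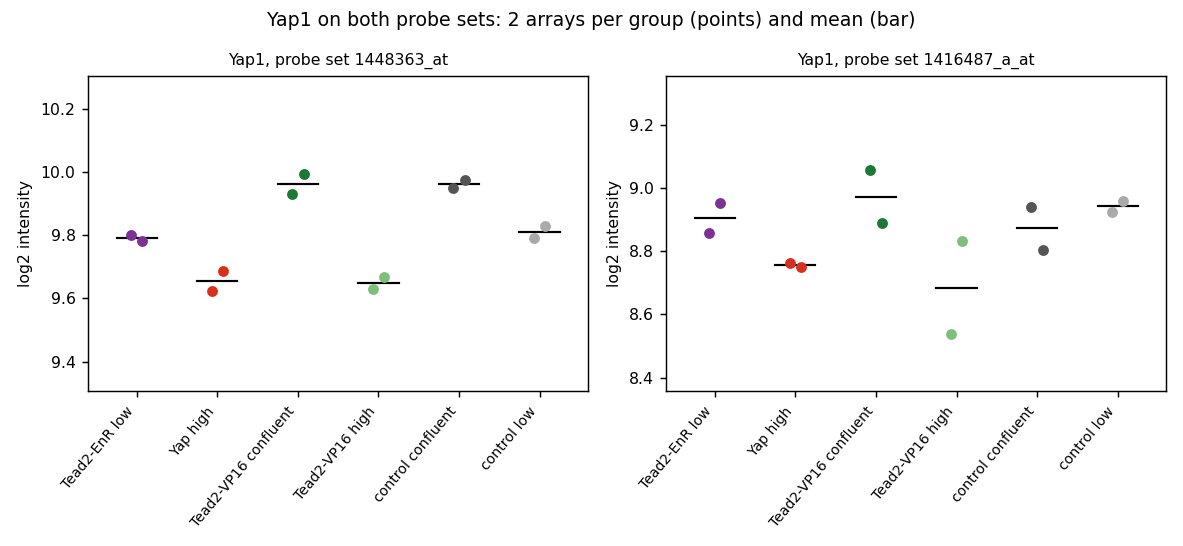
Log2 intensity (vertical axis) of Yap1 on its 2 probe sets in 6 groups; points are the 2 arrays of a group and bars their mean. On 1448363_at the arrays labelled Yap, at 9.62 and 9.69, sit among the lowest, together with Tead2-VP16 at high density.

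On 1448363_at Yap1 was below confluent control in Tead2-VP16 cells at high density too. These cells read 9.63 and 9.67 on it, 0.31 below that control (SE 0.06, adjusted p = 0.00505). This call held in every alternative fit of that probe set, with adjusted p up to 0.0405. On 1416487_a_at the difference from confluent control was -0.19 and not called (adjusted p = 0.267), with overlapping arrays. The mean of both probe sets stood at -0.25 (SE 0.06, adjusted p = 0.0131). Against low-density control the probe sets stood at -0.16 and -0.26 (adjusted p = 0.0676 and 0.0836), and their mean at -0.21 (SE 0.06, adjusted p = 0.0190). On 1448363_at Tead2-VP16 cells at complete confluency read 9.93 and 10.00, which is 0.31 above Tead2-VP16 cells at high density (SE 0.06, adjusted p = 0.00667). The arrays of these groups did not overlap, and the call was lost without the first high-density array (0.30, adjusted p = 0.0516) and in a fit restricted to those 4 arrays (adjusted p = 0.0575). On 1416487_a_at that step was 0.29 and missed the threshold (adjusted p = 0.0891). The arrays there were 9.06 and 8.89 at complete confluency against 8.54 and 8.83 at high density, so the groups did not overlap but the spread within each was wide.

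Tead2-EnR cells had Yap1 levels of 9.80 and 9.78 on 1448363_at, and the difference from low-density control was -0.02 (95% interval -0.15 to 0.12). From the highest to the lowest level the groups ran confluent control, Tead2-VP16 at confluency, low-density control, Tead2-EnR, Yap, and Tead2-VP16 at high density. Confluent control and Tead2-VP16 at confluency overlapped, as did low-density control and Tead2-EnR, and so did the last pair. Yap cells differed from Tead2-VP16 cells at high density by 0.01 (95% interval -0.13 to 0.14). The density step in control cells was 0.15 and did not pass the test (SE 0.06, adjusted p = 0.0739). It passed when probe sets below the median were left out (adjusted p = 0.0185), with a variance trend and robust prior (adjusted p = 0.0162), with quantile normalization repeated, where the step was 0.22 (adjusted p = 0.0148), and with 1 probe set per gene (adjusted p = 0.0354).

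Wwtr1 encodes Taz, the paralog of Yap that shares its Tead partners. On each of its probe sets the mean was highest in Tead2-VP16 cells at complete confluency. On 1417817_a_at and 1437155_a_at, however, the arrays of that group overlapped those of low-density control. These groups were not compared by a test. On 1417818_at Tead2-VP16 cells at complete confluency read 10.35 and 10.28, against 9.93 and 9.96 in confluent control, with no overlap. The rise was 0.37 (SE 0.06, adjusted p = 0.00690), and the call was lost without the first Tead2-VP16 array (0.33, adjusted p = 0.0595), without the first confluent control array (0.35, adjusted p = 0.0597) and in a fit restricted to those 4 arrays (adjusted p = 0.0792). On 1417817_a_at the same groups read 9.53 and 9.52, against 9.17 and 9.22, a rise of 0.33 (SE 0.07, adjusted p = 0.0340) that was lost when any of the 4 arrays was left out (0.31 to 0.36, adjusted p up to 0.168) and in a fit restricted to those arrays (adjusted p = 0.0936). The remaining probe set, 1437155_a_at, stood at 0.31 and missed the threshold. The mean over the 3 probe sets rose by 0.34 (SE 0.05, adjusted p = 0.00408).

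The probe sets of Wwtr1 differed in the density step of control cells. On 1417817_a_at the level was 9.17 and 9.22 in confluent control, against 9.53 and 9.42 in low-density control, and on 1437155_a_at 8.81 and 8.78, against 9.16 and 9.00. Both fell by 0.28 (SE 0.07 and 0.08, adjusted p = 0.0125 and 0.0142), with no overlap between arrays. Both calls were lost without the first low-density array (-0.22 and -0.20, adjusted p = 0.0850 and 0.106). The call of 1417817_a_at was also lost without the first confluent array (-0.26), and that of 1437155_a_at without the second (-0.27) and in a fit restricted to those 4 arrays (adjusted p = 0.0578). On 1417818_at, by contrast, the step was 0.06 and not called. Probe sets ending in _a_at are meant to detect several transcripts of 1 gene, and which transcripts differ was not tested.

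Wwtr1 in Yap cells at high density read 9.40 and 9.49 on 1417817_a_at, and in Tead2-VP16 cells at high density 9.39 and 9.49. Both groups lay 0.25 above confluent control (SE 0.07, adjusted p = 0.0482 for Yap and 0.0451 for Tead2-VP16). Neither call held when any 1 of its 4 arrays was left out (0.20 to 0.29 with Yap and 0.20 to 0.30 with Tead2-VP16, adjusted p up to 0.246 and 0.217), under the replicate block or in a fit of the 4 arrays alone. The mean of its 3 probe sets was 0.12 above confluent control in Yap cells (adjusted p = 0.163) and 0.20 above it in Tead2-VP16 cells (adjusted p = 0.0191). On 1417818_at Tead2-VP16 cells at high density read 10.07 on both arrays, against 9.89 and 9.88 in low-density control. That was a rise of 0.19 (SE 0.06, adjusted p = 0.0373), which was lost when any of these arrays was left out (0.18 to 0.19, adjusted p up to 0.126) and in a fit of them alone. Tead2-VP16 cells at complete confluency were 0.24 above those at high density (SE 0.06, adjusted p = 0.0223), a call lost without either high-density array (0.24 for both), without the first confluent one (0.20, adjusted p = 0.118) and in a fit of them alone. Neither of these last calls was made on the mean of the 3 probe sets (0.03 and 0.13, adjusted p = 0.679 and 0.109). In order of level on 1417818_at, Tead2-VP16 at confluency and then at high density stood apart from the other groups. Confluent control overlapped Tead2-EnR (9.93 and 9.94), and low-density control overlapped Yap (9.89 and 9.83). Between Yap and Tead2-VP16 at high density, which did not overlap there, Wwtr1 differed by -0.22 (95% interval -0.35 to -0.08). That difference missed the threshold (adjusted p = 0.123) and passed it when probe sets below the median were left out (adjusted p = 0.0284) or with a variance trend and robust prior (adjusted p = 0.00965).

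**Figure D4:**
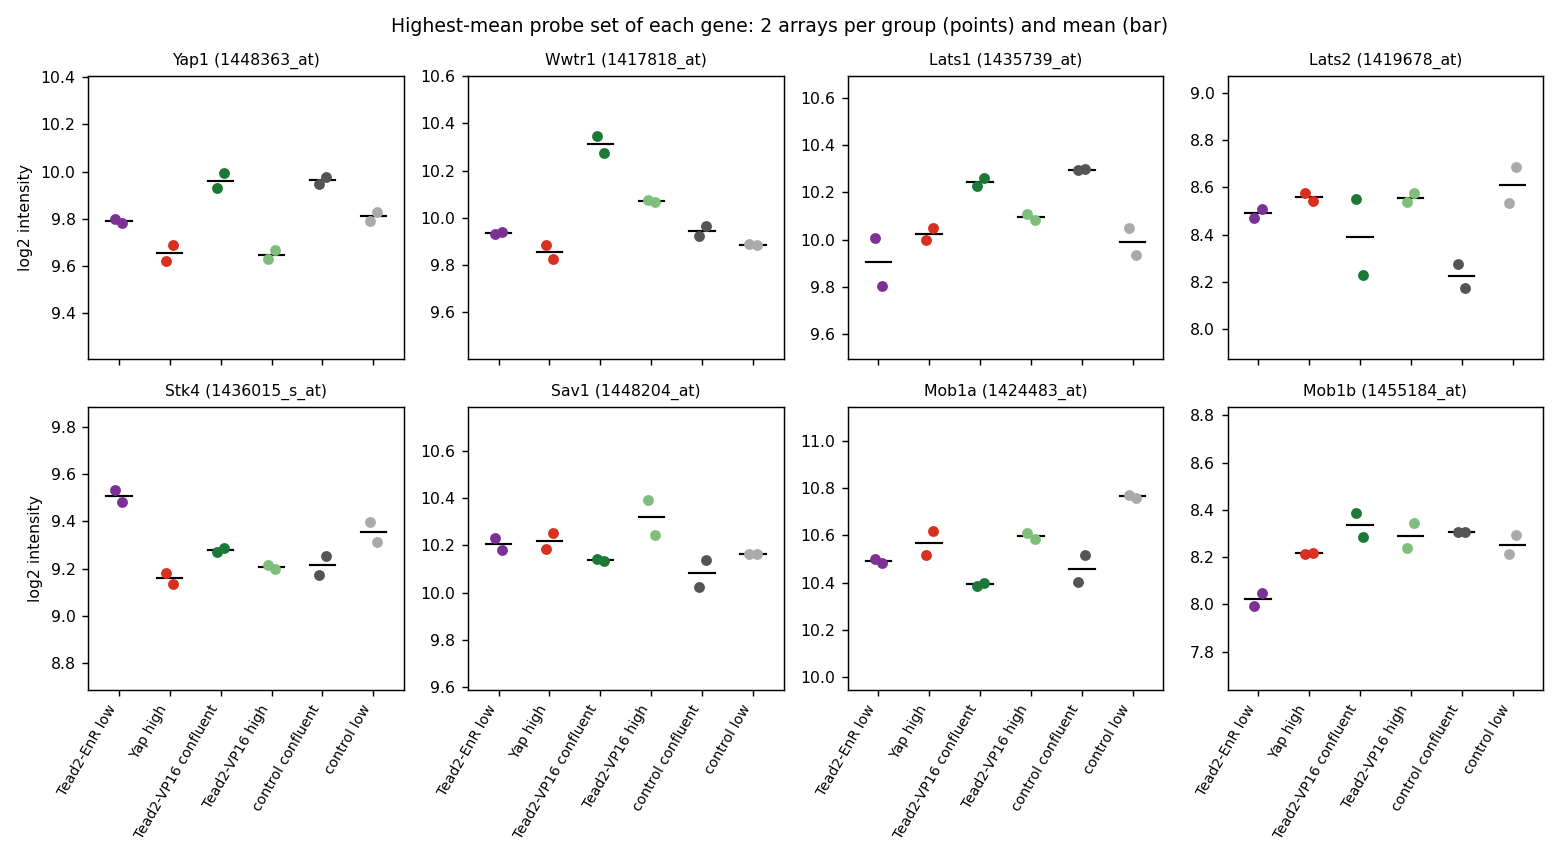
Log2 intensity (vertical axis, each panel spanning the same width of 1.2) of the probe set with the highest mean for each of the 8 genes in 6 groups; points are the 2 arrays of a group and bars their mean. Wwtr1 stands highest in Tead2-VP16 cells at complete confluency (10.35 and 10.28), and Mob1a in low-density control (10.77 and 10.76).

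Stk4, which encodes an upstream kinase of the cascade, was lower on 1421107_at in each of 3 denser groups compared with low-density control. The arrays read 7.23 and 7.19 in confluent control, against 7.74 and 7.88 in low-density control. The fall was 0.60 (SE 0.07, adjusted p = 7.73e-05) to 0.660 of the low-density level on the linear scale. In Yap cells the level was 7.28 and 7.35 and in Tead2-VP16 cells at high density 7.31 and 7.29, lower than low-density control by 0.50 and 0.51 (adjusted p = 3.98e-04 and 3.19e-04). All 3 calls held in every alternative fit of this probe set. Tead2-EnR cells, at low density too, read 7.69 and 7.78, a difference of -0.08 that was not called. The other probe sets moved less. On 1434159_at the arrays read 9.01 and 8.99 in confluent control, against 9.19 and 9.32 in low-density control, and the step was -0.26 (adjusted p = 0.0385), lost without the second low-density array (-0.19), without either confluent array (-0.26 and -0.25), with quantile normalization repeated (-0.21) and in a fit of these 4 arrays alone.

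The Stk4 probe set with the highest mean, 1436015_s_at, read 9.53 and 9.48 in Tead2-EnR cells, 9.18 and 9.14 in Yap cells, 9.27 and 9.29 in Tead2-VP16 cells at confluency, and 9.22 and 9.20 at high density. Confluent control read 9.17 and 9.25, and low-density control 9.40 and 9.31. Tead2-EnR was highest, followed by low-density control with no overlap, and Yap was lowest. Between these lay Tead2-VP16 at confluency, then confluent control and Tead2-VP16 at high density, which overlapped each other. Tead2-EnR cells lay 0.15 above low-density control, which was not called (adjusted p = 0.107). That difference passed when probe sets below the median were left out (adjusted p = 0.0307) and with a variance trend and robust prior (adjusted p = 0.0369). The density step was -0.14 and not called. It passed in both of those fits (adjusted p = 0.0354 and 0.0441) and with arrays centred on their medians (-0.18, adjusted p = 0.0411). Yap cells lay 0.20 below low-density control (SE 0.06, adjusted p = 0.0375). That call was lost without the first low-density array (-0.15), without either Yap array (-0.22 and -0.17), with quantile normalization repeated (-0.13) and in a fit of these arrays alone. Probe sets ending in _s_at can match transcripts of more than 1 gene.

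Lats1 and Lats2, the kinases that phosphorylate Yap and Taz, differed in the sign of their called changes in the density step of control cells. Lats1 on 1435739_at read 10.30 on both confluent arrays, against 10.05 and 9.94 in low-density control, a rise of 0.30 (SE 0.08, adjusted p = 0.0102). The call was lost without the second low-density array (0.25, adjusted p = 0.0730). On 1427679_at Lats1 read 8.49 and 8.21, against 8.17 and 8.29. The groups overlapped there, and the difference of 0.12 was not called.

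Lats1 also differed with the vectors. In Yap cells 1435739_at read 10.00 and 10.05, which was 0.27 below confluent control (SE 0.08, adjusted p = 0.0386), a call lost when any of the 4 arrays was left out (-0.30 to -0.25, adjusted p up to 0.183) and in a fit of these arrays alone. Tead2-EnR cells read 7.93 and 7.91 on 1427679_at, 0.31 below low-density control (SE 0.10, adjusted p = 0.0416), with no overlap. This call too was lost when any of its 4 arrays was left out (-0.37 to -0.25, adjusted p up to 0.195), under the replicate block (adjusted p = 0.0509) and in a fit of the 4 arrays alone. On 1435739_at Tead2-EnR cells read 10.01 and 9.80, and the difference from low-density control was -0.09 and not called. As the mean of both probe sets Lats1 was 0.20 lower in Tead2-EnR cells (SE 0.06, adjusted p = 0.0332), and 0.26 lower in Yap cells than in confluent control (adjusted p = 0.0140). In order of level on 1435739_at, confluent control came first. Tead2-VP16 at confluency (10.23 and 10.26) and at high density (10.11 and 10.08) followed without overlap, then Yap, low-density control and Tead2-EnR, in which each overlapped the next.

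Lats2 fell in confluent control against low-density control on 4 of its 6 probe sets. The dimmest of these were 1425420_s_at and 1426156_at, both below the median of all probe sets. The first is also of the _s_at class, which can match transcripts of more than 1 gene. On 1425420_s_at the level was 5.03 and 5.17 in confluent control, against 5.81 and 5.97 in low-density control, with no overlap. That fall of 0.79 (SE 0.12, adjusted p = 3.00e-04) was the largest change of any member and held in every alternative fit that kept this dim probe set. The brightest, 1419678_at, read 8.28 and 8.17, against 8.53 and 8.69, and fell by 0.38 (SE 0.10, adjusted p = 0.0119). The level of 1419679_at was 5.73 and 5.47 in confluent control, against 6.02 and 6.07, and that of 1426156_at 4.65 and 4.80, against 5.01 and 5.20. Their falls were 0.45 and 0.38 (adjusted p = 0.00592 and 0.00937). The second confluent array decided the calls of 1419678_at (-0.33 without it) and 1419679_at (-0.32), the second low-density array those of 1419678_at (-0.31) and 1426156_at (-0.28), and the first confluent array that of 1426156_at (-0.30). The other 2 probe sets, 1437101_at and 1439441_x_at, stood at -0.12 and -0.04 and were not called.

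Lats2 was higher in Yap cells at high density than in confluent control on 4 of 6 probe sets. On 1437101_at the Yap arrays read 7.98 and 7.96, against 7.53 and 7.49 in confluent control and 7.70 and 7.55 in low-density control. They lay above all 4 control arrays. The rise was 0.46 against confluent control (SE 0.08, adjusted p = 0.00240) and 0.34 against low-density control (SE 0.08, adjusted p = 0.00539), and both calls held in every alternative fit of that probe set. On 1439441_x_at, of a class that can cross-hybridize, the Yap arrays read 7.88 and 8.03, against 7.41 and 7.54 in confluent control and 7.51 on both low-density arrays. Those rises were 0.48 and 0.44 (SE 0.10, adjusted p = 0.0107 and 0.00803); both were lost without the second Yap array (0.41 and 0.37), and the first also without the first confluent array (0.41).

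On 1419678_at and 1419679_at Yap cells stood 0.33 and 0.42 above confluent control (adjusted p = 0.0494 and 0.0198). The call of 1419678_at was lost when any of the 4 arrays was left out (0.28 to 0.38), under the replicate block (adjusted p = 0.0632) and with arrays centred on their medians (adjusted p = 0.0525). That of 1419679_at was lost without either Yap array (0.44 and 0.40) or the second confluent one (0.29). Against low-density control the same 2 probe sets differed by -0.05 and -0.03, and 1425420_s_at was lower by 0.52 (SE 0.12, adjusted p = 0.00582). The probe sets of Lats2 therefore disagreed in sign in this comparison, as the plot of its 6 probe sets shows. The mean of all 6 differed by -0.00 (SE 0.05, adjusted p = 0.967), so no change against low-density control was called by gene. As that mean, Lats2 was 0.36 lower in confluent control than in low-density control (SE 0.05, adjusted p = 1.19e-04) and 0.36 higher in Yap cells than in confluent control (SE 0.05, adjusted p = 5.01e-04).

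**Figure D5:**
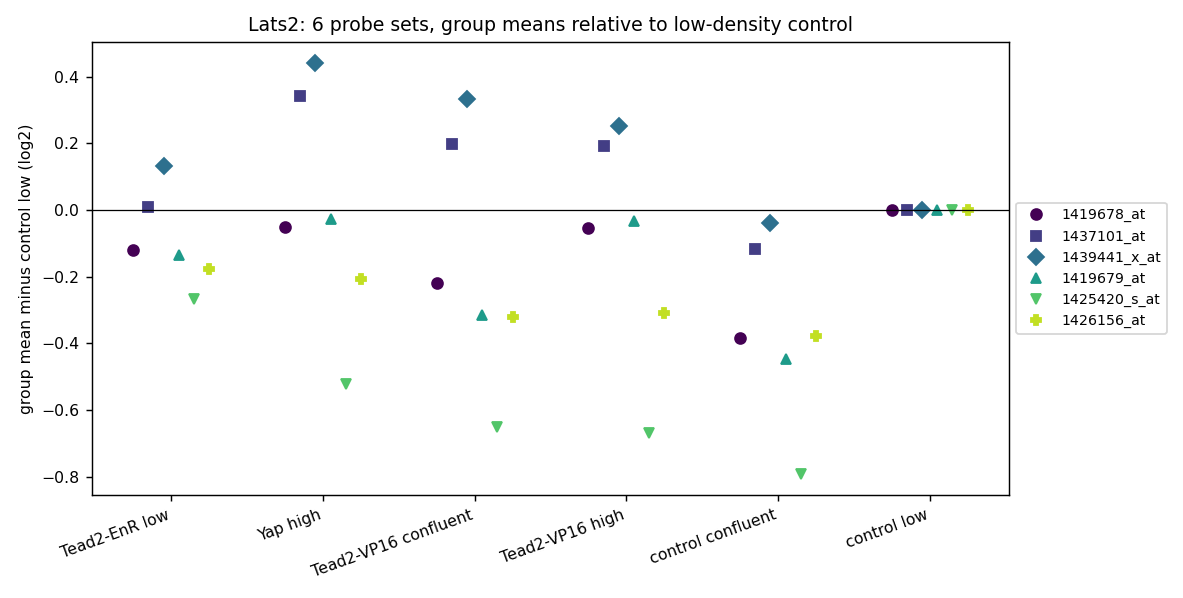
Group means of the 6 probe sets of Lats2 (symbols) minus the mean of the same probe set in low-density control (vertical axis, log2), in 6 groups; no error bars are drawn. In Yap cells 1437101_at and 1439441_x_at lie at 0.34 and 0.44, while 1425420_s_at lies at -0.52.

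In Tead2-VP16 cells Lats2 rose on 1 probe set at complete confluency and on 3 at high density, each against confluent control. On 1437101_at the arrays read 7.82 on both at complete confluency and 7.74 and 7.90 at high density, against 7.53 and 7.49 in confluent control. The rises were 0.31 at both densities (SE 0.08, adjusted p = 0.0447 and 0.0180), with no overlap. At complete confluency the call was lost when any of the 4 arrays was left out (0.29 to 0.34), under the replicate block (adjusted p = 0.0647) and in a fit of these arrays alone. At high density it was lost without the second Tead2-VP16 array (0.23), without either confluent array (0.33 and 0.28) and in a fit of these arrays alone.

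At high density 1419678_at and 1419679_at rose by 0.33 and 0.41 with Tead2-VP16 (adjusted p = 0.0476 and 0.0201). The first of these calls was lost when any of the 4 arrays was left out (0.28 to 0.38, adjusted p up to 0.220) and under the replicate block (adjusted p = 0.0605). The second was lost without either Tead2-VP16 array (0.46 and 0.37), without the second confluent array (0.28) and in a fit restricted to those arrays (adjusted p = 0.0561). Against low-density control, 1425420_s_at was 0.67 lower (SE 0.12, adjusted p = 0.00122), and 1426156_at 0.31 lower (adjusted p = 0.0302, lost under 5 alternatives, with adjusted p up to 0.193). The mean of the 6 probe sets was 0.10 lower than in low-density control and not called (adjusted p = 0.122). Against confluent control that mean was 0.20 higher in Tead2-VP16 cells at confluency (SE 0.05, adjusted p = 0.0343). At high density it was 0.26 higher (SE 0.05, adjusted p = 0.00331). In order of level on 1419678_at, low-density control came first, overlapping Yap (8.58 and 8.54). Yap in turn overlapped Tead2-VP16 at high density (8.54 and 8.58). Tead2-EnR (8.47 and 8.51) lay below these, Tead2-VP16 at confluency had a wide spread (8.55 and 8.23), and confluent control was lowest.

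Sav1, the scaffold that joins Mst1 to Lats, fell with density on 1 of its 2 probe sets. On 1416075_at the level was 9.50 and 9.41 in confluent control, against 9.90 and 9.98 in low-density control, a fall of 0.49 (SE 0.08, adjusted p = 4.10e-04) that held in every alternative fit. Yap cells read 9.66 and 9.57, 0.33 below low-density control (adjusted p = 0.00682, lost without the second Yap array at -0.29, and for the mean of both probe sets at -0.14, adjusted p = 0.0520). Tead2-VP16 cells at high density read 9.68 and 9.73. They lay 0.24 below low-density control (adjusted p = 0.0351) and 0.25 above confluent control (adjusted p = 0.0442). Both of these calls were lost when any 1 array of the comparison was left out (-0.28 to -0.20 and 0.21 to 0.30) and in a fit of 4 arrays alone. The first was also lost with quantile normalization repeated (-0.18) and for the mean of both probe sets (-0.04, adjusted p = 0.569), and the second under the replicate block. Against confluent control the mean of both probe sets was 0.24 higher in these cells (SE 0.05, adjusted p = 0.00504). In Tead2-VP16 cells that mean was 0.20 lower at complete confluency than at high density (SE 0.05, adjusted p = 0.0158).

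On the brighter Sav1 probe set, 1448204_at, the groups lay closer together. Tead2-VP16 cells at high density read 10.39 and 10.24, against 10.02 and 10.14 in confluent control, and rose by 0.24 (SE 0.07, adjusted p = 0.0477). The call was lost under 6 alternatives, among them without the first Tead2-VP16 array (0.16), without either confluent array (0.18 and 0.29) and under the replicate block (adjusted p = 0.0659). Tead2-EnR cells read 10.23 and 10.18, Yap cells 10.19 and 10.25, Tead2-VP16 cells at confluency 10.14 and 10.13, and low-density control 10.16 on both arrays. In order of level, Tead2-VP16 at high density, Yap and Tead2-EnR overlapped one another in turn, low-density control stood between them and Tead2-VP16 at confluency, and the last overlapped confluent control.

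Mob1a and Mob1b, which bind and activate the Lats kinases, passed the test as lower with Tead2-EnR on all of their probe sets, 3 and 2 of them. Lats1 was called lower on 1427679_at, while its other probe set (-0.09) had overlapping arrays and was not called. Yap1 overlapped low-density control on both probe sets, with differences of -0.02 and -0.04 that were not called. Of the 23 members, 17 lay below low-density control and 6 above it, and 45.9% of all probe sets lay above it. Mob1a on 1424483_at read 10.50 and 10.48 in Tead2-EnR cells, against 10.77 and 10.76 in low-density control, a fall of 0.27 (SE 0.07, adjusted p = 0.00991) with no overlap. On 1424484_at it read 10.00 and 10.03, against 10.27 and 10.28, and on 1423782_at 10.05 and 10.03, against 10.22 and 10.24. It fell there by 0.26 and 0.19 (adjusted p = 0.00899 and 0.0461). Mob1b on 1455184_at read 7.99 and 8.05, against 8.21 and 8.29, a fall of 0.23 (SE 0.07, adjusted p = 0.0283). On 1430564_at it read 6.77 and 6.74, against 7.27 and 7.09, a fall of 0.43 (SE 0.10, adjusted p = 0.00973).

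None of these 5 Tead2-EnR calls held in all alternatives, though each kept its sign. The calls of Mob1a were lost without the second Tead2-EnR array for 1424483_at (-0.27), without the first for 1424484_at (-0.25), and without any of the 4 arrays (-0.21 to -0.18) or with quantile normalization repeated (-0.15) for 1423782_at. For Mob1b, 1455184_at lost its call without the second low-density array (-0.19) or either Tead2-EnR array (-0.21 and -0.26), and 1430564_at without the first low-density array (-0.34) or the second Tead2-EnR array (-0.41). A fit of these 4 arrays alone kept only the call of 1430564_at among the 6 members called. Averaged over their probe sets, 3 of the 8 genes (37.5%) were called with Tead2-EnR, beside 36.2% of all 18193 genes in either direction. All were lower: Mob1a by 0.24 (SE 0.05, adjusted p = 0.00245), Mob1b by 0.33 (SE 0.06, adjusted p = 0.00248) and Lats1, as given above.

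As the mean of its probe sets, Mob1a was 0.16 higher than in confluent control in Yap cells (adjusted p = 0.0379) and in Tead2-VP16 cells at high density (adjusted p = 0.0323), though no single probe set passed the test in either comparison. When probe sets below the median were left out, 1424484_at and 1423782_at passed in both (adjusted p up to 0.0433). They also passed with a variance trend and robust prior (adjusted p up to 0.0320). Mob1a fell on all 3 probe sets in confluent control against low-density control. On 1424483_at the confluent arrays read 10.40 and 10.51, against 10.77 and 10.76, and the fall of 0.31 (SE 0.07, adjusted p = 0.00342) held in every alternative fit. The confluent arrays read 10.06 and 10.00 on 1424484_at and 9.92 and 10.00 on 1423782_at, and the falls were 0.24 and 0.27 (adjusted p = 0.00874 and 0.00604). Of these, 1424484_at lost its call without the second confluent array (-0.22) and in a fit of the 4 arrays alone, and 1423782_at without the first confluent array (-0.23). Yap cells read 10.52 and 10.62 on 1424483_at, 0.20 below low-density control (adjusted p = 0.0414), a call lost under 7 alternatives, including without any 1 of its 4 arrays (-0.25 to -0.15), and not made on the mean of the 3 probe sets (-0.12, adjusted p = 0.0787). In order of level, low-density control stood above all other groups, Tead2-VP16 at high density (10.61 and 10.58) overlapped Yap, Tead2-EnR overlapped confluent control, and Tead2-VP16 at confluency was lowest (10.39 and 10.40).

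Mob1b differed between its probe sets in the density step. On 1430564_at the level was 6.64 and 6.52 in confluent control, against 7.27 and 7.09 in low-density control, a fall of 0.61 (SE 0.10, adjusted p = 7.30e-04) that held in every alternative fit. Yap cells read 6.47 and 6.49 on it, 0.70 lower than low-density control (SE 0.10, adjusted p = 3.43e-04), which also held in every alternative fit. Tead2-VP16 cells at high density read 6.79 and 6.71, lower by 0.43 (adjusted p = 0.00759), a call lost without the first low-density array (-0.34) or the second Tead2-VP16 array (-0.39). On 1455184_at confluent control read 8.30 on both arrays, and the step was 0.05 and not called. There Yap cells read 8.21 and 8.22, and Tead2-VP16 cells 8.39 and 8.29 at confluency and 8.24 and 8.34 at high density. Each group overlapped the next in level from Tead2-VP16 at confluency down to Yap, and Tead2-EnR was lowest and apart.

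In the density step of control cells, where members fell most often, the gap between 3′ and 5′ probe sets of the transferrin receptor, an array control for RNA length, also differed. That gap was 1.30 ± 0.19 in confluent control, against 0.98 ± 0.05 in low-density control (log2, mean ± SD, n = 2). The gap for actin, another such control, was 0.23 ± 0.02 against 0.08 ± 0.01, and that for Gapdh, which differed the other way, -0.28 ± 0.03 against -0.23 ± 0.01. In the same step the poly-A spike-in probe sets stood at 7.98 ± 0.10, against 7.65 ± 0.08. In Tead2-EnR cells the transferrin receptor gap and the spike-in level were 1.12 ± 0.02 and 7.95 ± 0.03, and the actin and Gapdh gaps 0.15 ± 0.02 and -0.26 ± 0.02. The transferrin receptor gap was 1.50 ± 0.06 in Tead2-VP16 cells at confluency, 1.31 ± 0.07 in Yap cells and 1.23 ± 0.00 in Tead2-VP16 cells at high density. Their part in the members' changes was not tested.

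Other genes of the pathway were taken from a list of 61, of which 54 were measured, with the probe set of highest mean for each. In confluent control against low-density control 17 rose and 12 fell, beside 24.9% and 21.4% of all 18193 genes so represented, with a median of 0.02 against -0.01 for all. On all 157 probe sets of these genes the balance turned, with 31 higher and 42 lower, beside 20.2% and 18.6% of all probe sets. Tead4, a DNA-binding partner of Yap and Taz, fell by 1.82, the cortical scaffold Wwc1 by 1.34 and Rassf5, a Ras-association protein, by 1.33. Rassf2 rose by 1.62, Frmd6 by 0.86 and Amot, an angiomotin that binds Yap, by 0.70.

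With Tead2-EnR at low density 13 of these genes rose and 9 fell, beside 18.4% and 16.0% of all genes (medians 0.06 and -0.01). On all 157 of their probe sets 26 rose and 25 fell, beside 13.6% and 13.9% of all probe sets. Rassf5 fell by 1.42, the Tead cofactor gene Vgll3 by 1.03 and Wwc1 by 0.95, while Rassf2 rose by 0.59, Vgll4, another Tead cofactor, by 0.58 and Rassf3 by 0.51. With Tead2-VP16 at complete confluency 7 rose and 0 fell (12 and 7 at an unadjusted limma p below 0.05), beside 3.35% and 3.14% of all genes. The median change there was -0.03 for these genes and -0.01 for all. On all their probe sets 15 rose and 1 fell, beside 2.75% and 2.48% of all probe sets. The largest rises were in Ajuba, whose LIM protein binds Lats (1.04), Rassf5 (1.02) and Wtip, a relative of Ajuba (0.66). In Yap cells against confluent control 5 rose and 11 fell, beside 9.61% and 12.4% of all genes (medians -0.03 and -0.003). On all their probe sets 12 rose and 20 fell, beside 8.09% and 9.13% of all probe sets. Tead4 rose by 1.14, Rassf5 by 0.50 and Ajuba by 0.48, and Tead2 fell by 0.83, Frmd6 by 0.52 and Csnk1e, a casein kinase gene, by 0.50.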

How the data were processed

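Total RNA of NIH3T3 cells was hybridized to Affymetrix mouse arrays, 2 per group. The deposited values are probe-set intensities on a linear scale, made by the authors with RMA, per the submitters' processing notes, which give no version. RMA corrects background, normalizes arrays by quantiles and summarises probes, so differences shared by most probe sets are removed. They ran from 3.774 to 25979.8. Log2 was taken, 64 control probe sets were left out and 45037 were fitted in limma 3.58.1 (R 4.3.3; lmFit and eBayes, 6 group means, 6 residual and 3.69 prior degrees of freedom). P-values are two-sided and Benjamini-Hochberg adjusted over all probe sets of a comparison, and the threshold is 0.05. The number of arrays limits the precision. The fit was tested on simulated data. Figures were drawn in Python 3.11.15 with matplotlib 3.10.9.

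Symbols came from the array platform's annotation: 34945 probe sets had 1 symbol, 932 several and 9160 none. Levels of different probe sets were ranked only to choose 1 per gene and to place them against quartiles of all probe sets, and are not relative abundances. Every member probe set could be named; array values are given for the probe set with the highest mean of each gene, for both of Yap1, and for most others in at least 1 comparison that called them. Up to 3 other Hippo genes a direction, those with the largest called change, were named in 4 comparisons. Members and lists were chosen with earlier results of these data known. Alternatives covered the unit tested, a filter on dim probe sets, the variance prior, normalization, the arrays in the fit, the replicate number as a block, leaving out each array, and a 2-fold rule. Where an alternative fit of a probe set, or the mean over its gene, ends a call, this is said beside the result.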

Additional observations from a re-analysis of the deposited data

How the results depend on the processing

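Of 53 called changes of member probe sets, 13 held in every alternative fit of the same probe set (10 each, or 9 where the filter removed it) and none turned its sign in those fits. A called mean over the gene's probe sets, of the same sign, stood beside 10 of these 13 and 42 of the 53; the 3 others were the calls of Lats2 against low-density control in Yap and Tead2-VP16 cells. The 2-fold rule kept 0 of them. Centring arrays on their medians kept 52 and made 6 further calls, repeated quantile normalization kept 47, a variance trend with a robust prior kept 52 and made 30 further calls, and a filter on the median probe set kept all 48 it could test and made 28 further calls. Centring moved the median of all changes by at most 0.0422 (log2). Fits of only the 4 arrays compared kept 28. Apart from the settings' own construction (fewer arrays or fewer features tested), the cause was not tested.

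With 1 probe set per gene, members called of 8, beside all genes called of 18193, were 4 beside 8898 (48.9%) in the density step of control cells, 2 beside 6980 (38.4%) with Tead2-EnR, and 1 (12.5%) beside 1815 (9.98%) with Tead2-VP16 at confluency. In Yap cells they were 3 (37.5%) beside 4756 (26.1%) against confluent and 3 beside 7716 (42.4%) against low-density control, and in Tead2-VP16 cells at high density 3 beside 4893 (26.9%) and 3 beside 7806 (42.9%) against the same. Between Yap and Tead2-VP16 they were 0 beside 367 (2.02%), and in the Tead2-VP16 step 3 beside 4465 (24.5%). Averaging the probe sets of a gene called 7 (87.5%) beside 8653 (47.6%) in the density step, 3 (37.5%) beside 6591 (36.2%) with Tead2-EnR, 4 beside 4275 (23.5%) and 3 (37.5%) beside 7454 (41.0%) in Yap cells, 5 (62.5%) beside 4608 (25.3%) and 3 beside 7475 (41.1%) in Tead2-VP16 cells at high density, 0 beside 425 (2.34%) between these, and 2 beside 4018 (22.1%) in the Tead2-VP16 step. The 2-fold rule took 3839, 1161, 84, 391, 2267, 488, 2404, 72 and 247 probe sets in the 9 comparisons, in the order density step, Tead2-EnR, Tead2-VP16 at confluency, Yap against confluent and low-density control, Tead2-VP16 at high density against the same, Yap against Tead2-VP16, and the Tead2-VP16 step, and 0 members in each.

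The filter left 21 members and 22518 probe sets. It called 5 members (23.8%) beside 4231 probe sets (18.8%) with Tead2-VP16 at confluency, 12 (57.1%) beside 9587 (42.6%) and 11 (52.4%) beside 13997 (62.2%) in Tead2-VP16 cells at high density against confluent and low-density control, 1 (4.76%) beside 1524 (6.77%) between Yap and Tead2-VP16, and 8 (38.1%) beside 8946 (39.7%) in the Tead2-VP16 step. Under the variance trend the same comparisons gave 5 (21.7%) beside 4521 (10.0%), 13 (56.5%) beside 10134 (22.5%), 12 (52.2%) beside 15526 (34.5%), 1 (4.35%) beside 2026 (4.50%) and 7 (30.4%) beside 9275 (20.6%), and Yap cells against confluent control 11 (47.8%) beside 9605 (21.3%). Fits of the 4 arrays alone called 1 member (4.35%) beside 8946 probe sets (19.9%) with Tead2-EnR, 0 beside 875 (1.94%) with Tead2-VP16 at confluency, 2 beside 6148 (13.7%) and 3 (13.0%) beside 12309 (27.3%) in Tead2-VP16 cells at high density against confluent and low-density control, 0 beside 11 (0.0244%) between Yap and Tead2-VP16, and 0 beside 4288 (9.52%) in the Tead2-VP16 step. With Tead2-EnR the filter called 7 members (33.3%) beside 12404 probe sets (55.1%). In Yap cells it called 9 (42.9%) beside 9240 (41.0%) against confluent and 9 (42.9%) beside 14004 (62.2%) against low-density control.

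Leaving out each array in turn, members called ranged from 9 to 12 in the density step, beside 14969 to 16217 of all probe sets, and from 1 to 3 with Tead2-EnR (4.35% to 13.0%), beside 9704 to 10851 (21.5% to 24.1%), so that members lost a larger share of their 6 calls than all probe sets did of their 12393. With Tead2-VP16 at confluency they ranged from 0 to 1, beside 965 to 1189. In Yap cells they ranged from 2 to 4 beside 4751 to 5156 against confluent control, and from 5 to 7 beside 11948 to 13450 against low-density control. In Tead2-VP16 cells at high density they ranged from 1 to 2 beside 5302 to 6212, and from 3 to 5 beside 12206 to 13358, against the same. Between Yap and Tead2-VP16 there were 0 beside 86 to 604, and in the Tead2-VP16 step 0 to 2 beside 3719 to 5264.

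The labels give every group replicates 1 and 2 without saying what the numbers share. Deviations of same-numbered arrays correlated with r from -0.0757 to 0.1013 over 15 pairs of groups, 1 of them above 0.1. These correlations do not tell what same-numbered arrays share beyond the number. With the replicate block, 44 of 53 member calls were kept, 1 was added, and in Tead2-VP16 cells at high density against confluent control 3 members (13.0%) were called in place of 7, beside 8104 probe sets.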

Other observations

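The probe set that the annotation assigns to both Xpo4, a nuclear export receptor gene, and Lats2 read 7.57 and 7.68 (log2 intensity) in Tead2-EnR cells, 7.61 and 7.62 in Yap cells, 7.63 and 7.61 in Tead2-VP16 cells at confluency, and 7.29 and 7.49 in Tead2-VP16 cells at high density. It read 7.56 and 7.62 in confluent control and 8.33 and 8.13 in low-density control. Both low-density control arrays lay above the arrays of all other groups. Which of the 2 genes it reads was not tested.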
